A study of Homo sapiens with 12 samples.

Results

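CYP24A1, SPP1 and CCN5 are 3 of the 30358 genes listed in both of the count tables, and all 3 had opposite responses to the same compound in 2 sets of cultures. They were selected on the measured values themselves, namely the change under the inhibitor in each set and the difference between the sets, so those values are given below as a description and no test of them is made. They were found by gene name (CCN5 also under its older symbol, WISP2) and joined between the tables by gene identifier. Each was counted in every one of the 12 libraries.

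The libraries hold poly-A RNA from wild-type human cancer cells treated for 48 h with either the vehicle DMSO or 100 nM PTDSS1i, a small molecule that inhibits phosphatidylserine synthase 1 (PTDSS1), one of the enzymes that make the membrane lipid phosphatidylserine. One set was labelled KYSE30, an oesophageal squamous carcinoma line, and was made as a first batch. The other was labelled U138MG, a glioblastoma line, and was made as a second batch, so that line and batch cannot be told apart. Each set had 3 DMSO and 3 PTDSS1i cultures, described as biological replicates, with between 18800932 and 26514658 counts per library. The annotation differed between the tables, with 30984 genes listed for KYSE30 and 78691 for U138MG.

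The markers of the second set went against its label. Its DMSO libraries held 1470 CPM (counts-per-million of the library total) of KRT5 and 4860 CPM of KRT15, keratins of stratified epithelium, and 276 CPM of TP63, their transcription factor. They held 0.206 CPM of vimentin (VIM) and no count of OLIG2 or S100B (where a gene was counted, 0 allows up to 0.135–0.157 CPM in these libraries). As the annotation differed between the tables, these 0 counts cannot be read as absence of the RNA. The astrocyte filament GFAP was at 2.36 CPM. In GENCODE v29 its exons overlap CCDC103 and FAM187A on the other strand by 2230 bases each, and the strand setting is not stated. The lists were mixed, since SPARC (713 CPM), FN1 (75.8), COL1A1 (54.5) and CDH2 (11.9) of the glioma and mesenchymal list were present, and KRT14 (0.198) and KRT6A (0.488) of the squamous list were nearly absent. These libraries are therefore called the libraries labelled U138MG. The KYSE30 libraries held 4610 CPM of KRT8, 514 CPM of CDH1 and 0.0608 CPM of KRT5 under DMSO. The squamous list was thus mixed there too, with KRT14 (0.355 CPM) and KRT6A (5.22) low and KRT15 (41.3) and TP63 (98.2) present. The identity of neither set was tested. Some of these markers moved with the treatment. The summed level of the squamous list went from 1140–1170 to 1700–1710 CPM in KYSE30 and from 7190–8010 to 2830–2970 CPM in the libraries labelled U138MG, in the opposite direction to CYP24A1, SPP1 and CCN5 in both sets. In the latter set KRT15 and KRT5 made up most of that sum under DMSO and fell, whereas SFN, DSG3, EPCAM and KRT6A were higher in both sets and TP63 lower in both, at edgeR adjusted p below 0.05. The glioma and mesenchymal sum went from 226–282 to 144–154 CPM and from 845–877 to 471–486 CPM. Within it TNC, the matrix protein tenascin C, had the direction of CYP24A1, SPP1 and CCN5 in both sets (log2 fold changes -0.97 and 3.89). The simple epithelial sum went from 9440–10300 to 12600–13000 CPM and from 2490–2590 to 1850–1920 CPM, and the fibroblast sum was at most 3.18 CPM. The part of these markers in the results was not tested.

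CYP24A1 is the mitochondrial 24-hydroxylase that inactivates the hormonal form of vitamin D, and in many tissues it is among the genes most strongly switched on by the vitamin D receptor, which makes it a feedback brake. SPP1 encodes osteopontin, a secreted phosphoprotein of bone, macrophages and many carcinomas that binds integrins through an Arg-Gly-Asp (RGD) motif and also binds CD44. CCN5 is a secreted matricellular protein of the CCN family. Unlike its relatives it lacks the C-terminal cystine-knot module, and in breast cells it is known as a gene induced by oestrogen and by Wnt signalling.

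In GENCODE v29 coordinates (GRCh38), CYP24A1 (ENSG00000019186) lies on the minus strand at chr20:54153449-54173973 and has 12 merged exons with 3972 exonic bases. SPP1 (ENSG00000118785) lies on the plus strand at chr4:87975650-87983426, with 8 merged exons and 2321 exonic bases. CCN5 (ENSG00000064205) lies on the plus strand at chr20:44714844-44728509, with 4 merged exons and 4981 exonic bases. CYP24A1 and CCN5 thus share a chromosome, but 9.42 Mb separate them. No exon of the 3 genes overlapped an exon of another gene in that annotation.

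The sequence that gives osteopontin its integrin binding is shown because the integrins that read it are described further on. In the reference transcript of SPP1 used here, whose longest reading frame has 903 coding bases and codes for 300 residues, the only RGD starts at residue 145. Coding bases 415 to 465 read as follows, with the 3 codons of RGD in capitals.
SPP1 coding: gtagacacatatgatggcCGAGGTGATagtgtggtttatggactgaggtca

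SPP1 was also the one of the 3 genes with an entry in the RefSeq promoter table (GRCh38.p14). The 186 bases on the plus strand that precede every annotated start in GENCODE v29, at chr4:87975464-87975649, are shown because SPP1 had the largest change of the 3 in the libraries labelled U138MG. The capitals mark the only match to the motifs searched, the RUNX core TGTGGT read on the opposite strand, 142 to 137 bases upstream of the RefSeq start.
SPP1 promoter: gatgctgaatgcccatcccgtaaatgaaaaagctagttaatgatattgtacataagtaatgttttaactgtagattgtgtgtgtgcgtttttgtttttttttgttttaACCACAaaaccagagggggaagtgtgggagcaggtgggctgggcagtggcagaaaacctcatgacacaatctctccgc

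Of 35116 promoters searched on both strands over the 250 bases upstream of the start, 11% held that RUNX core. The same window of SPP1 held no match to the vitamin D receptor half-site (AGGTCA, with the variants AGTTCA as well as GGTTCA as well as GGGTCA), present in 33.8% of promoters, nor to a pair of half-sites 3 bases apart, present in 0.0655%. It held no TGANTCA (AP-1, 6.57% of promoters), GGAATG (TEAD, 11.9%), ATCAAAG (TCF/LEF, 2.26%) or TGATGNAA (CHOP-ATF4, 3.14%). A match of such short letters is a description and not a binding site.

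CYP24A1 was scarce in KYSE30 and scarcer under the inhibitor. The 3 KYSE30 DMSO libraries held 16, 35 and 38 counts, or 0.79, 1.86 and 1.68 CPM, and the 3 PTDSS1i libraries held 4, 3 and 3 counts, or 0.178, 0.149 and 0.119 CPM. All DMSO libraries were above all PTDSS1i libraries, and the PTDSS1i values sat close to the 0.113–0.16 CPM that 3 counts are worth across the 12 libraries. The means were 1.45 ± 0.574 and 0.149 ± 0.0296 CPM (SD, n = 3). The fitted log2 fold change was -3.14 with a standard error (SE) of 0.425, and at such low counts it depends on edgeR's default prior count. The ratio of the pooled levels, 10 counts against 89, was 0.102, with a 95% exact interval for counting error of 0.0473 to 0.197.

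In the libraries labelled U138MG the same gene went the other way. DMSO libraries held 48, 54 and 50 counts of CYP24A1, or 2.51, 2.42 and 2.34 CPM, and PTDSS1i libraries held 607, 599 and 727, or 25.4, 26.2 and 27.4 CPM. The groups did not overlap, and the spread within each was small beside the distance between them, 2.42 ± 0.0829 against 26.3 ± 1.03 CPM (SD, n = 3). The log2 fold change was 3.59 (SE 0.106), a 12-fold higher level. The difference between the responses, libraries labelled U138MG minus KYSE30, was 6.69 on the log2 scale (SE 0.372), the largest of the 3.

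In KYSE30, SPP1 was the most abundant of the 3 by CPM and had the smallest change. Its KYSE30 DMSO libraries held 444, 605 and 627 counts, or 21.9, 32.2 and 27.8 CPM, and its PTDSS1i libraries held 286, 287 and 294, or 12.7, 14.3 and 11.7 CPM. The groups did not overlap, with means of 27.3 ± 5.14 and 12.9 ± 1.31 CPM (SD, n = 3). The log2 fold change of -0.98 (SE 0.113) lay just inside the fold limit of 1 on the log2 scale that is used below for calls, while CCN5 (-2.03) and CYP24A1 (-3.14) lay outside it. SPP1 passed that limit in 3 other fits, at -1.09 without DMSO replicate 1, -1.04 without PTDSS1i replicate 2 and -1.09 with scaling by library size alone.

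In the libraries labelled U138MG, SPP1 was at 146, 190 and 256 counts under DMSO, or 7.63, 8.52 and 12 CPM. Under PTDSS1i it reached 10057, 9371 and 11051 counts, or 420, 410 and 417 CPM. The 3 treated libraries were nearly equal, while the highest DMSO library held 1.57 times the lowest. The log2 fold change was 5.61 (SE 0.111), a 48.8-fold higher level, and the difference between the sets was 6.55 (SE 0.208). Osteopontin is also a macrophage product, so macrophage markers were read beside it. Their summed level went from 26.1–32.2 to 101–109 CPM in the libraries labelled U138MG, most of it the lysosomal protein CD68 (28.4 and 103 CPM), while the leukocyte marker PTPRC had no count under DMSO and 0.0418 CPM under PTDSS1i, and it went from 6.27–7.55 to 15.5–18.7 CPM in KYSE30, where SPP1 was lower. In GENCODE v29 the exons of CD68 overlap AC016876.2 on the same strand by 1789 bases, so some of its reads cannot be assigned with certainty.

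CCN5 had 62, 61 and 77 counts in the KYSE30 DMSO libraries, or 3.06, 3.24 and 3.41 CPM. The PTDSS1i libraries held 17, 9 and 24 counts, or 0.757, 0.447 and 0.951 CPM. Every treated library was below every control library, and the treated libraries varied by 2.13 times among themselves. The means were 3.24 ± 0.175 and 0.718 ± 0.254 CPM (SD, n = 3), and the log2 fold change was -2.03 (SE 0.235). In the libraries labelled U138MG the DMSO counts were 247, 391 and 236, or 12.9, 17.5 and 11.1 CPM, and the PTDSS1i counts were 4402, 4310 and 4200, or 184, 189 and 158 CPM. These groups did not overlap either, with means of 13.8 ± 3.34 and 177 ± 16.3 CPM (SD, n = 3) and a log2 fold change of 3.82 (SE 0.175), a 14.1-fold higher level. The difference between the sets was 5.80 (SE 0.397).

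**Figure D1:**
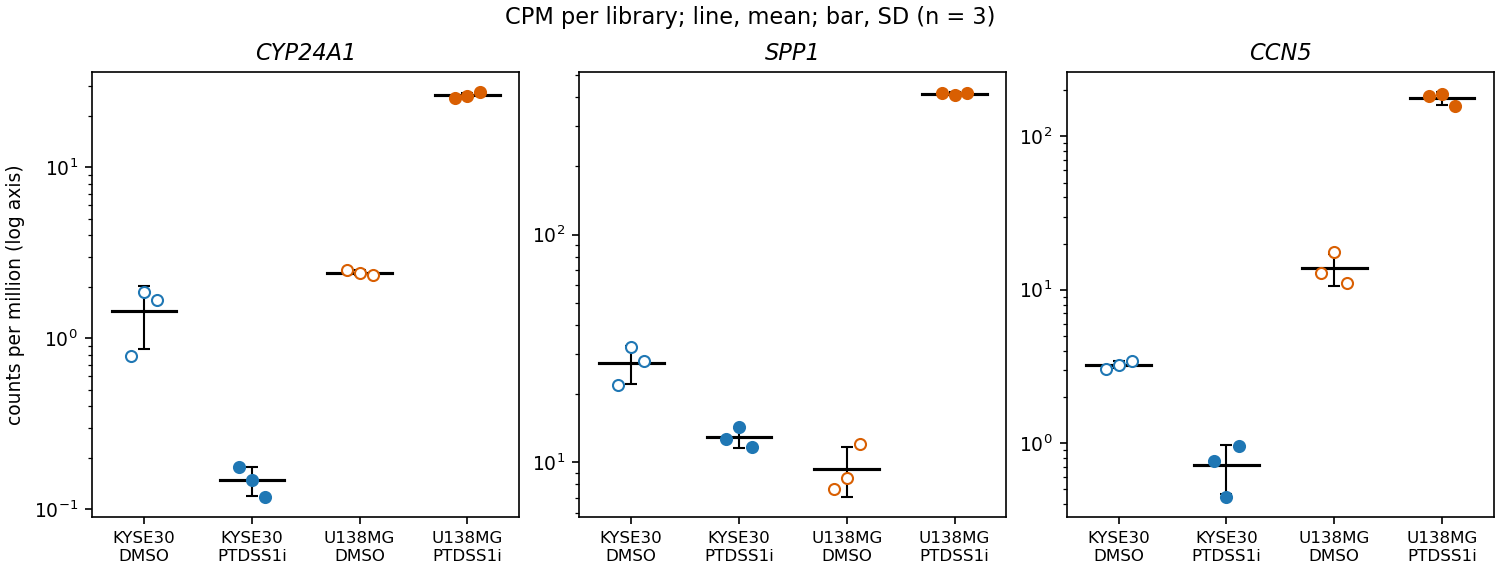
CPM of CYP24A1, SPP1 and CCN5 in each library on log axes that differ between panels, with open points for DMSO, filled points for PTDSS1i, a line at the mean and bars of 1 SD (n = 3). In all 3 panels the KYSE30 points step down and the U138MG points step up, and for SPP1 the KYSE30 PTDSS1i points overlap those of U138MG DMSO.

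The groups that do not overlap carry little weight on their own. All DMSO libraries were above all PTDSS1i libraries for 41.4% of the genes tested in KYSE30, and all PTDSS1i libraries were above all DMSO libraries for 27% of those tested in the libraries labelled U138MG. The genes were chosen on the size of their changes, so their ranks by size follow from that choice and are only a description. Among the 16389 genes tested in KYSE30, ordered by size of decrease, CYP24A1 was 7th, CCN5 80th and SPP1 1208th. Among the 17666 tested in the libraries labelled U138MG, ordered by size of increase, SPP1 was 41st, CCN5 107th and CYP24A1 133rd.

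Levels before treatment did not share an order. Under DMSO, CYP24A1 was 1.67 times and CCN5 4.26 times as high in the libraries labelled U138MG as in KYSE30, whereas SPP1 was 2.91 times as high in KYSE30. Under PTDSS1i, all 3 were higher in the libraries labelled U138MG, by 177 times for CYP24A1, 32.2 times for SPP1 and 247 times for CCN5. For CYP24A1 and CCN5 the order of levels from high to low was U138MG PTDSS1i, U138MG DMSO, KYSE30 DMSO and KYSE30 PTDSS1i, with no overlap between neighbours. For SPP1 it was U138MG PTDSS1i, KYSE30 DMSO, KYSE30 PTDSS1i and U138MG DMSO, and the last 2 groups overlapped (11.7–14.3 against 7.63–12 CPM). These ratios cross tables with different annotations and batches. Per kilobase of exon in GENCODE v29, the U138MG PTDSS1i level was 179 CPM per kb for SPP1, 35.5 for CCN5 and 6.63 for CYP24A1, against 5.55, 0.144 and 0.0374 CPM per kb in KYSE30 PTDSS1i.

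Opposite responses of this size were rare among all genes. A gene is called here where the Benjamini-Hochberg adjusted p of edgeR's quasi-likelihood test was below 0.05 and the log2 fold change was beyond 1 in size. Calls went to 6.4% of the genes tested as higher and 7.04% as lower in KYSE30, and to 8.19% as higher and 11.6% as lower in the libraries labelled U138MG. At adjusted p below 0.05 alone, 30.1% were higher and 32% lower in KYSE30, and 33.9% higher and 33.6% lower in the libraries labelled U138MG. Of the 13990 genes tested in both sets, 26 (0.186%) were called lower in KYSE30 and higher in the libraries labelled U138MG. CYP24A1 and CCN5 had the widest gaps of the 26, which is a consequence of how they were picked, and SPP1 was outside the 26 through its KYSE30 value of -0.98. By comparison, 60 genes were called in the reverse pattern, 295 were called higher in both and 298 lower in both. A response that differed between the sets, in size or in direction, was common. The adjusted p of the difference was below 0.05 for 49.9% of 18405 genes.

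**Figure D2:**
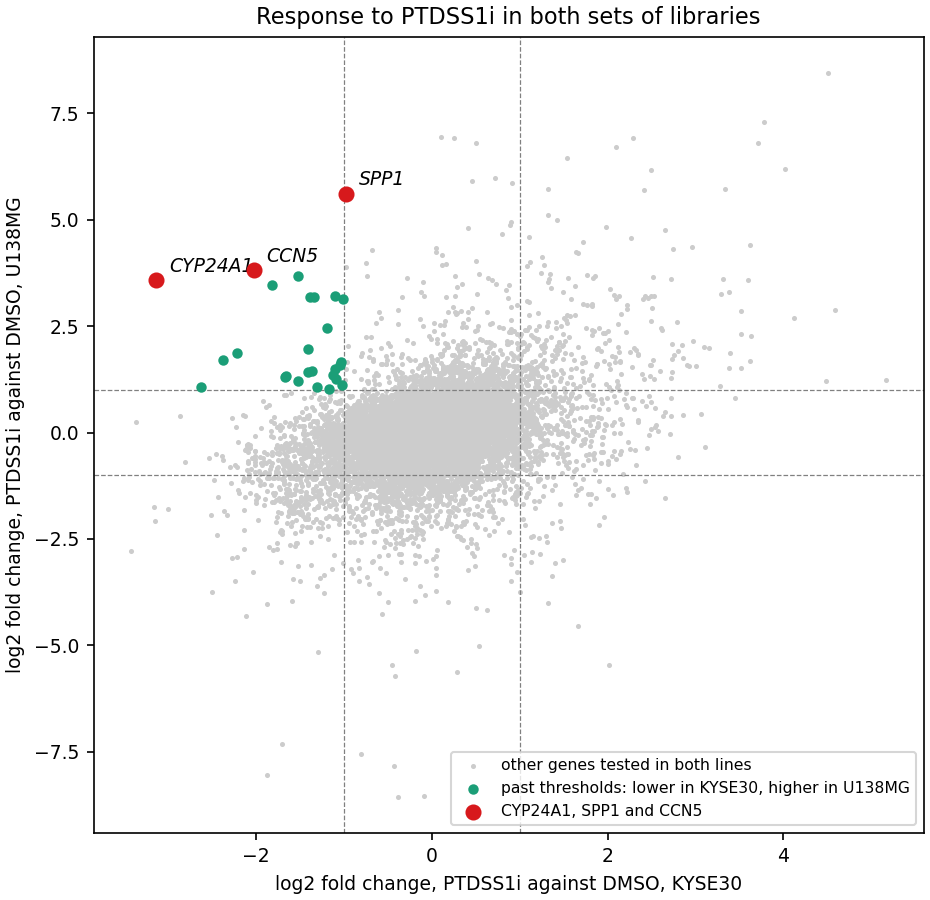
Log2 fold change of PTDSS1i against DMSO in KYSE30 (x axis) and in the libraries labelled U138MG (y axis) for the genes tested in both, with dashed lines at 1 and -1. CYP24A1, SPP1 and CCN5 lie at the upper left, SPP1 at -0.98 on the x axis, next to the 26 genes called lower in the first and higher in the second.

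The machinery that makes, senses and removes the vitamin D hormone was examined because CYP24A1 is its last step. Of 22 genes listed for vitamin D metabolism and its receptor, 16 were tested in KYSE30, where 1 was called higher and none lower (with edgeR's test, 6 higher and 4 lower at adjusted p below 0.05 alone), and 15 in the libraries labelled U138MG, where 3 were called higher and 2 lower. Calls over all genes tested were 6.4% higher and 7.04% lower in KYSE30, and 8.19% and 11.6% in the libraries labelled U138MG. The KYSE30 count of 1 became 3 without DMSO replicate 2 and 2 without either of PTDSS1i replicates 2 and 3. The list medians were 0.0812 and -0.12 on the log2 scale, beside -0.0255 and -0.0259 over all genes tested, and the KYSE30 median was -0.0248 when scaled by library size alone. The one gene called higher in both sets was DHCR7, the sterol reductase that diverts the vitamin D precursor into cholesterol, with log2 fold changes of 1.92 (SE 0.0773) and 1.91 (SE 0.0382).

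CYP27B1, the 1-alpha-hydroxylase that makes the hormone CYP24A1 destroys, had the same pattern as CYP24A1 at a smaller size. It went from 5.52 ± 0.668 to 3.63 ± 0.0601 CPM in KYSE30 (log2 fold change -0.50, SE 0.144, edgeR adjusted p = 0.0044) and from 0.413 ± 0.0884 to 1.62 ± 0.124 CPM in the libraries labelled U138MG (2.09, SE 0.345, edgeR adjusted p = 5.19e-06), n = 3 each. The difference between the sets was 2.56 (SE 0.322, edgeR adjusted p = 5.38e-08). An exon of CYP27B1 overlaps METTL1 on the same strand by 107 bases, so some of its reads cannot be assigned with certainty. VDR, the receptor, rose in both sets, from 23 to 28.4 CPM in KYSE30 (log2 fold change 0.41, SE 0.0746) and from 11.8 to 31 CPM in the libraries labelled U138MG (1.55, SE 0.0815), and the rise was larger in the latter by 1.10 (edgeR adjusted p = 1.1e-09).

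The receptor's partner RXRA fell in both sets, by 0.14 (SE 0.049) and 0.84 (SE 0.0343) on the log2 scale, with edgeR adjusted p-values of 0.0177 and 1.48e-18. FDX1 and FDXR pass electrons to the mitochondrial hydroxylases, CYP24A1 and CYP27B1 included. FDXR fell in both sets, from 48.6 to 26.2 CPM and from 35.5 to 13.4 CPM (log2 fold changes -0.79 and -1.26). FDX1 fell by 0.39 in KYSE30, and its value of 0.06 in the libraries labelled U138MG did not pass the test (edgeR adjusted p = 0.603). LRP2, which takes up vitamin D with its carrier, fell there from 3.24 to 1.2 CPM. CYP2R1, a 25-hydroxylase, had 3647 counts over the KYSE30 libraries and none in the libraries labelled U138MG. As the annotation differed between the tables, this lack of counts cannot be read as absence of the RNA.

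Of 22 listed vitamin D receptor targets other than CYP24A1 and SPP1, 14 were tested in KYSE30, with 3 called higher and 1 lower, and 16 in the libraries labelled U138MG, with 7 called higher and 2 lower. Among all genes tested, 6.4% were called higher and 7.04% lower in KYSE30. The shares were 8.19% and 11.6% in the libraries labelled U138MG. At adjusted p below 0.05 alone the counts were 10 higher and 1 lower, and 12 higher and 3 lower, beside 30.1% and 32% of all genes in KYSE30 and 33.9% and 33.6% in the libraries labelled U138MG. The list medians were 0.503 and 0.927 on the log2 scale, beside -0.0255 and -0.0259 over all genes tested. By that limit, 1 listed target fell and 10 rose in KYSE30, where CYP24A1 had -3.14. In the libraries labelled U138MG, where CYP24A1 had 3.59, 12 rose and 3 fell. The part of the receptor was not tested. THBD, the anticoagulant receptor thrombomodulin, went from 4.58 to 11.3 CPM (log2 fold change 1.41, SE 0.12) and from 21.7 to 119 CPM (2.60, SE 0.0546).

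KLK6, a secreted serine protease, SLC37A2, a sugar-phosphate exchanger, and SEMA3B, a secreted semaphorin, were called higher in the libraries labelled U138MG alone, with log2 fold changes of 2.14, 2.05 and 2.52 against 0.61, 0.70 and 0.10 in KYSE30. The differences between the sets had edgeR adjusted p-values of 5.48e-06, 1.59e-13 and 1.68e-15. CDKN1A, the cell-cycle inhibitor p21, was the reverse, with 1.59 in KYSE30 and 0.94 in the libraries labelled U138MG. DUSP10, a phosphatase of stress kinases, had 0.69 and 1.25. CD14, a co-receptor for bacterial lipid, was called higher in both (1.13 and 2.29) at under 2 CPM, and lost its KYSE30 call at 0.92 without DMSO replicate 1, 0.91 without DMSO replicate 3 and 1.03 without PTDSS1i replicate 2. TRPV6, the epithelial calcium channel, fell in both sets, from 5.53 ± 1.59 to 0.626 ± 0.111 CPM in KYSE30 (-3.01, SE 0.248) and from 6.37 ± 0.968 to 1.66 ± 0.362 CPM in the libraries labelled U138MG (-1.80, SE 0.196), n = 3 each.

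The receptors that bind osteopontin were read beside their ligand. Of 10 listed, 6 were tested in KYSE30, with 1 called higher, none lower and 5 higher at edgeR adjusted p below 0.05 alone, beside 30.1% of all genes. In the libraries labelled U138MG 8 were tested, with 3 called higher and 2 lower, and 6 higher and 2 lower at adjusted p below 0.05 alone, beside 33.9% and 33.6% of all genes. Calls went to 6.4% of all genes as higher and 7.04% as lower in KYSE30, and to 8.19% and 11.6% in the libraries labelled U138MG. The 2 called lower there had 99 and 44 counts in all. Their number became 0 with 10 counts required in every library and 1 with both lines fitted together. The number called higher there became 5 without a filter. CD44 rose in both, from 534 to 948 CPM and from 406 to 692 CPM (log2 fold changes 0.93 and 0.92), and ITGAV, the integrin chain that pairs to read RGD, rose from 314 to 524 CPM and from 141 to 158 CPM (0.84 and 0.31). Its beta partners ITGB5 and ITGB6 had log2 fold changes of -0.07 and 0.28 in KYSE30 and 1.59 and 1.24 in the libraries labelled U138MG. ITGA5, the fibronectin receptor chain, rose in both (1.31 and 2.51). ITGB3, the classical partner in bone, had no count in the U138MG DMSO libraries and 0.508 ± 0.283 CPM under PTDSS1i, and was too low to be tested. In GENCODE v29 the exons of ITGB3 overlap AC068234.1 on the same strand by 2266 bases, and those of ITGB6 overlap AC092153.1 by 966. Some reads of both genes cannot be assigned with certainty.

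Among the enzymes and factors that act on osteopontin, 5 of 9 were tested in KYSE30, with 1 called higher and none lower, and 6 in the libraries labelled U138MG, with 3 called higher and 1 lower. These counts stand beside 6.4% and 7.04% of all genes in KYSE30, and 8.19% and 11.6% in the libraries labelled U138MG. The KYSE30 call was PHEX, an endopeptidase of bone (1.06, 63 counts in all, named after its value was seen). No gene of the list was called higher there by DESeq2, with scaling by library size alone, or when DMSO replicate 3 or either of PTDSS1i replicates 2 and 3 was left out. FAM20C, the secretory-pathway kinase that phosphorylates osteopontin, had no change past the test in KYSE30 (21.7 and 21.8 CPM, log2 fold change 0.11, SE 0.0745, edgeR adjusted p = 0.199) and rose from 8.05 to 26.1 CPM in the libraries labelled U138MG (1.84, SE 0.0887). TGM2, the transglutaminase that cross-links it, had the direction of SPP1 in both sets. It fell from 6.9 ± 0.754 to 3.31 ± 0.672 CPM in KYSE30 (-0.95, SE 0.153, edgeR adjusted p = 1.37e-05, and past the fold limit at -1.06 by library size alone, -1.05 without DMSO replicate 3, -1.04 without PTDSS1i replicate 2 and -1.03 without PTDSS1i replicate 3) and rose from 13.8 ± 3.51 to 51.8 ± 2.11 CPM in the libraries labelled U138MG (2.04, SE 0.17, edgeR adjusted p = 0.000177), n = 3 each, and the difference was 2.96 (SE 0.249, edgeR adjusted p = 2.15e-07). RUNX2, the osteoblast factor of the RUNX family, rose by 0.32 and 1.79. MMP7, a protease that cuts osteopontin, fell from 4.07 to 0.913 CPM in the libraries labelled U138MG. Of the 4 listed relatives of SPP1 in the SIBLING family, IBSP was the one tested, at under 1 CPM.

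Within the CCN family, the relatives of CCN5 differed among themselves. Of the 5 others, 3 were tested in KYSE30 (1 called higher, 1 lower) and 4 in the libraries labelled U138MG (1 called higher, none lower). The shares of all genes called higher and lower were 6.4% and 7.04% in KYSE30, and 8.19% and 11.6% in the libraries labelled U138MG. The KYSE30 count called higher became 2 when any one of the DMSO replicates or the third PTDSS1i replicate was left out, and 0 with 10 counts required in every library. CCN2, the connective tissue growth factor, was the nearest in pattern, since it fell from 68.4 ± 1.68 to 26.1 ± 0.223 CPM in KYSE30 (log2 fold change -1.28, SE 0.0601) and rose from 3.62 ± 0.843 to 5.69 ± 0.867 CPM in the libraries labelled U138MG (0.80, SE 0.176, edgeR adjusted p = 0.000242), n = 3 each. The difference for CCN2 was 2.05 (SE 0.154, edgeR adjusted p = 1.72e-12). CCN1 had -0.14 in KYSE30, which did not pass the test (edgeR adjusted p = 0.0638), and 0.67 in the libraries labelled U138MG. CCN3 rose in both, from 0.333 to 1.35 CPM and from 14.1 to 75.3 CPM (2.12 and 2.56). CCN2 passed the fold limit in the libraries labelled U138MG without DMSO replicate 3, at 1.01.

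Wnt and oestrogen responses were read because CCN5 is known to follow them in other cells. Of 13 listed Wnt/beta-catenin targets and inhibitors, 10 were tested in KYSE30, with none called higher and 2 lower (at edgeR adjusted p below 0.05 alone, 2 higher and 4 lower), and 9 in the libraries labelled U138MG, with 1 called higher and 5 lower (at adjusted p below 0.05 alone, 2 higher and 5 lower). Among all genes tested, 6.4% were called higher and 7.04% lower in KYSE30, and 8.19% and 11.6% in the libraries labelled U138MG. The list medians were -0.339 and -1.55 on the log2 scale, beside -0.0255 and -0.0259 over all genes tested. In the libraries labelled U138MG, AXIN2 and NKD1, feedback inhibitors of the pathway, had log2 fold changes of -1.79 and -1.98, LEF1 had -1.55, DKK1 had -2.03 and APCDD1 had -2.99, the opposite direction to CCN5. ZNRF3 fell in KYSE30 (-1.17, SE 0.0929). RNF43, another feedback inhibitor, rose in both sets (0.62 and 0.50, edgeR adjusted p = 0.000889 and 3.01e-08). In GENCODE v29 the exons of RNF43 overlap AC004687.2 on the same strand by 4326 bases, and those of AXIN2 overlap AC004805.1 by 1316. TCF7, a T-cell factor of the pathway, had the direction of CCN5 in both. It fell from 7.78 ± 1.03 to 3.5 ± 0.0998 CPM in KYSE30 (-1.04, SE 0.134) and rose from 4.82 ± 0.343 to 13.1 ± 1.63 CPM in the libraries labelled U138MG (1.59, SE 0.121), n = 3 each, with a difference of 2.59 (SE 0.182, edgeR adjusted p = 2.23e-13). Its KYSE30 value was -0.97 without DMSO replicate 2, which ended that call, and its exons overlap SKP1 on the other strand.

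Of 8 listed oestrogen and progesterone receptors and targets, 4 were tested in KYSE30, with 2 called higher and none lower, and 5 in the libraries labelled U138MG, with 3 called higher and 1 lower. GREB1, an oestrogen-induced co-factor, had 1.12 and 1.39, both below 5 CPM, and CTSD, cathepsin D, had 0.41 and 1.10, the latter at 0.95 and no longer called with scaling by library size alone. The exons of CTSD overlap AC068580.4 on the same strand by 1304 bases in GENCODE v29. XBP1, which is also a factor of the unfolded protein response, had 1.01 and 1.82, and its KYSE30 value was at or just below 1 in 3 of the 6 fits that left out a library (0.996 to 1 when either of DMSO replicates 1 and 2, or the first PTDSS1i replicate, was left out), at 0.904 by library size alone and at 0.999 without a filter. ESR2, an oestrogen receptor, fell from 2.87 to 0.689 CPM in the libraries labelled U138MG. Over the 93 listed genes, 10 of 59 tested were called higher and 4 lower in KYSE30, and 21 of 64 were called higher and 13 lower in the libraries labelled U138MG. The shares of all genes called higher and lower were 6.4% and 7.04% in KYSE30, and 8.19% and 11.6% in the libraries labelled U138MG.

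**Figure D3:**
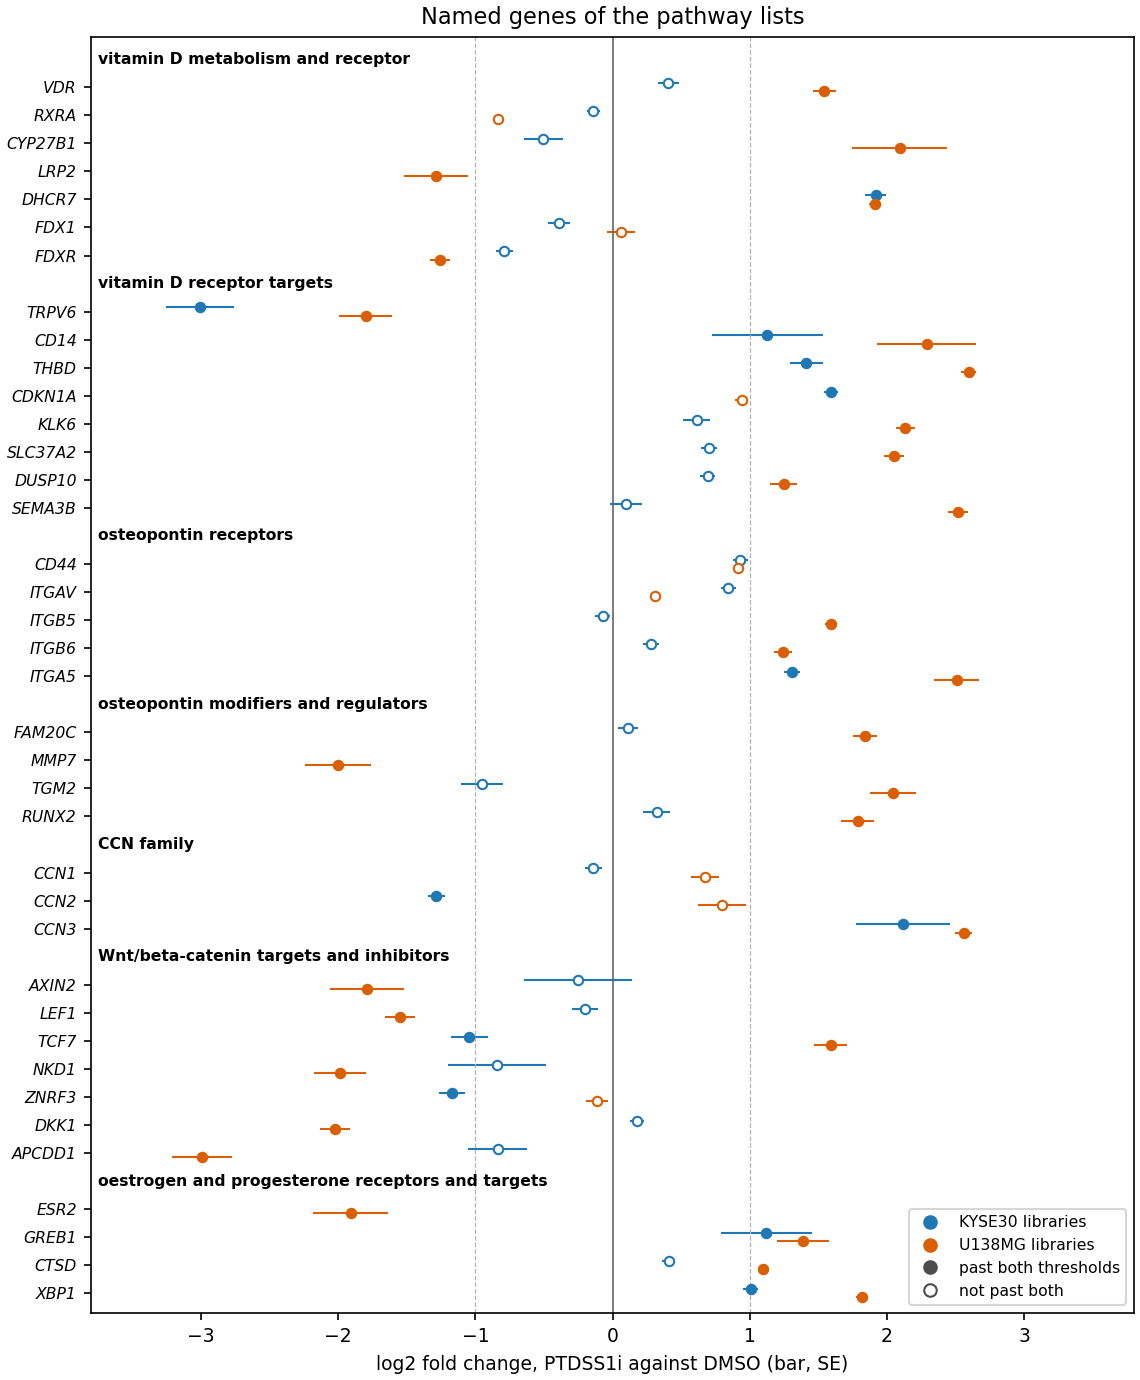
Log2 fold change of PTDSS1i against DMSO with bars of 1 SE for the named genes of 7 of the lists, in KYSE30 (blue) and the libraries labelled U138MG (orange), where filled points passed both the adjusted p and the fold limit. CYP27B1, TGM2, CCN2 and TCF7 lie left of 0 in KYSE30 and right of 0 in U138MG, and most receptor targets lie right of 0 in both.

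The genes beside the 3 were examined because position played no part in their choice. Within 500 kb of CCN5, 12 genes were tested in KYSE30, with none called higher and 3 lower, and 13 in the libraries labelled U138MG, with 4 called higher and none lower. Of all genes tested, 6.4% were called higher and 7.04% lower in KYSE30, and 8.19% higher and 11.6% lower in the libraries labelled U138MG. The medians near CCN5 were -0.325 and 0.345 on the log2 scale, beside -0.0255 and -0.0259 over all genes tested. They were 0.496 and -0.133 around SPP1 and 0.362 and -0.36 around CYP24A1. The part of position was not tested. KCNK15, which encodes a two-pore-family potassium channel subunit and lies 17.3 kb from CCN5, went from 1.51 ± 0.153 to 0.851 ± 0.44 CPM in KYSE30 (log2 fold change -0.75, SE 0.317, edgeR adjusted p = 0.0455) and from 0.748 ± 0.166 to 10.7 ± 2.17 CPM in the libraries labelled U138MG (3.98, SE 0.204, edgeR adjusted p = 1.8e-15), n = 3 each. ADA, adenosine deaminase, 62.6 kb away, fell from 27.5 ± 0.759 to 11.4 ± 0.409 CPM in KYSE30 (-1.17, SE 0.0786) and rose from 27.2 ± 1.19 to 50.3 ± 2.46 CPM in the libraries labelled U138MG (1.03, SE 0.059), n = 3 each. The U138MG call of ADA ended at 0.996 without DMSO replicate 3 and at 0.884 with scaling by library size alone. PABPC1L, 182 kb away, fell by 1.09 on the log2 scale in KYSE30 and rose by 0.42 in the libraries labelled U138MG. The KYSE30 value was -0.998 without PTDSS1i replicate 1, which ended its call, and that of KCNK15 was -1.12 without the same library, which made it one.

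RIMS4, 23.3 kb from CCN5, was called lower in KYSE30 (-1.90, SE 0.275) and was too low to be tested in the libraries labelled U138MG. Its exons overlap those of KCNK15 on the other strand by 506 bases, and without a stated strand setting their reads cannot be told apart there. PI3, the protease inhibitor elafin, rose in the libraries labelled U138MG (1.55). KCNK15-AS1 (ENSG00000244558), an antisense RNA whose span contains CCN5 and which the U138MG table names LINC01260, had 1.08 there at under 1 CPM, and this call ended in 4 of the 6 fits that left out a library, with values from 0.816 to 1.13 in those fits.

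Around SPP1, 9 genes were tested in KYSE30, with 4 called higher and none lower, and 8 in the libraries labelled U138MG, with 1 called higher and 1 lower. These counts stand beside 6.4% and 7.04% of all genes in KYSE30, and 8.19% and 11.6% in the libraries labelled U138MG. ABCG2, a drug efflux pump 107 kb away, shared the pattern of SPP1, from 52.2 ± 3.02 to 29.8 ± 3.55 CPM in KYSE30 (-0.70, SE 0.0831, edgeR adjusted p = 1.01e-06) and from 6.53 ± 0.247 to 22.8 ± 1.96 CPM in the libraries labelled U138MG (1.95, SE 0.0954), n = 3 each. HERC6, an interferon-induced gene, had the reverse pattern (1.21 and -1.09), and IBSP, HERC5 and PPM1K were called higher in KYSE30 (1.47, 2.86 and 1.53). Around CYP24A1, 2 genes were tested in each set, and BCAS1, 82.9 kb away, went the opposite way to CYP24A1 in both (1.04 in KYSE30 and -1.14 in the libraries labelled U138MG). The KYSE30 call of BCAS1 ended at 0.822 without DMSO replicate 1 and at 1.04 without PTDSS1i replicate 3.

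**Figure D4:**
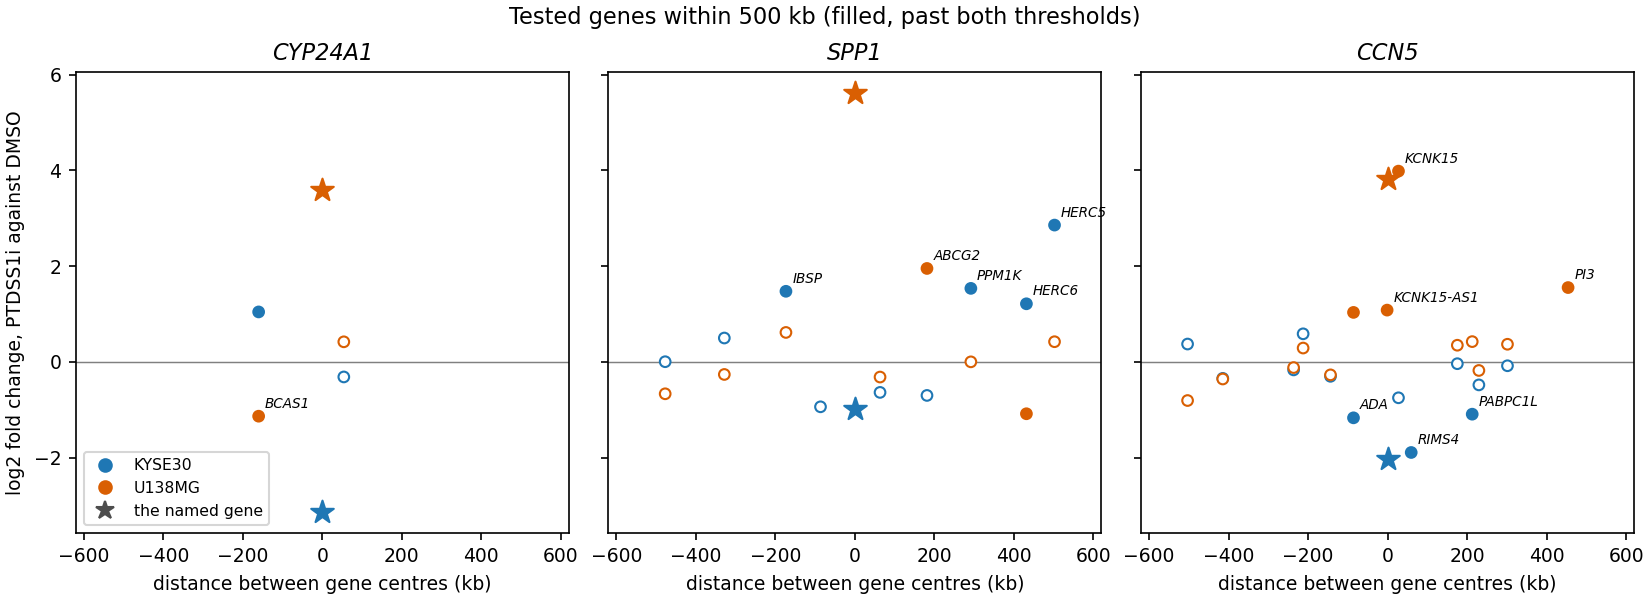
Log2 fold change of PTDSS1i against DMSO for the tested genes within 500 kb of CYP24A1, SPP1 and CCN5, by distance between gene centres in kb, with stars for the 3 genes themselves and filled points where a gene passed both limits. Near CCN5, the 3 filled KYSE30 points lie below 0 and the 4 filled U138MG points above it.

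Across the 12 libraries the 3 profiles were alike to different degrees. On log2 CPM, Pearson's r was 0.979 (Spearman's rho 0.944) for CYP24A1 and CCN5, 0.82 (0.392) for CYP24A1 and SPP1 and 0.784 (0.35) for SPP1 and CCN5. The libraries form 4 groups that share line, batch and treatment, so these values describe group means more than libraries. Among 11726 genes with an SD of at least 0.5 over the libraries, the highest Pearson's r with CYP24A1 was that of HEG1 (0.986), HDGFL3 (0.985) and TCIM (0.982), which ranked 443rd, 9th and 103rd by Spearman's rho. With SPP1 it was that of SDC3 (0.991), the antisense RNA ARHGEF35-AS1 (0.990) and FHDC1 (0.985), which ranked 1st, 6th and 4th by rho and whose KYSE30 log2 fold changes were -0.25, -0.34 and -0.15. With CCN5 it was that of ACOT13 (0.990), TGM2 (0.989) and ENOPH1 (0.988), which ranked 277th, 74th and 277th by rho.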

How the data were processed

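RNA-seq counts per gene were deposited by the authors as one table per cell line. The submitters' processing notes name Trimmomatic, STAR, featureCounts and the build hg38; versions, gene annotation and strand setting are not given in the sources used here. Replicates were not pooled. Groups followed the labels. The members and the lists were chosen with earlier results of these data known.

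CPM was computed per library total. Each line's treated and vehicle libraries entered a fit of their own in edgeR 4.0.16 (R 4.3.3), with robust quasi-likelihood fits and TMM scaling. Genes were kept by filterByExpr (minimum count 10, minimum total 15), and Benjamini-Hochberg adjustment covered all genes tested. The fits used edgeR's default prior count, and a prior count of 2 entered the log2 CPM used for correlations. The difference between the lines was the interaction term over the 12 libraries. Code was tested on simulated counts. Alternatives were DESeq2 1.42.0, scaling by library size, other filters, a replicate block, both lines fitted together, and leaving out each library. Named genes were the 3 members, VDR, RXRA, CYP27B1, FDX1, FDXR, CD44, ITGAV, ITGB3, FAM20C, CCN1 and CCN2, listed genes called in a line with a mean of at least 1 CPM there, called neighbours within 500 kb and the 3 most correlated genes per member. Counts limit precision: 3 counts equal 0.113–0.16 CPM, and intervals cover counting error only. Positions come from GENCODE v29 and the promoter from RefSeq, neither stated to be the annotation used for counting. The labels give the KYSE30 growth medium for every sample.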

Additional observations from a re-analysis of the deposited data

Results flagged for a closer look

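For CYP24A1, SPP1 and CCN5, every PTDSS1i library was below every DMSO library in KYSE30 and above every DMSO library in the set labelled U138MG, with differences (libraries labelled U138MG minus KYSE30, log2 scale) of 6.69, 6.55 and 5.80. These genes were chosen for that pattern, so their differences were not tested. Of 51 other genes named, 44 were tested for the difference, and 38 of these had an adjusted p below 0.05 in edgeR's interaction test. The difference was above 0 for 25 of them and below 0 for 13, which is not the direction of change within either set. Most were named because they were called in at least one set, so this share cannot be read against that of all genes. The adjusted p-values ran from 4.74e-19 to 0.0188.

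In the vitamin D lists the difference was 2.56 for CYP27B1, 2.39 for SEMA3B, 1.48 for KLK6, 1.31 for SLC37A2, 1.17 for TRPV6, 1.15 for THBD, 1.1 for VDR, 0.513 for DUSP10 and 0.411 for FDX1, and it was -0.739 for RXRA, -0.692 for CDKN1A and -0.509 for FDXR. Among the genes tied to osteopontin it was 2.96 for TGM2, 1.69 for FAM20C, 1.63 for ITGB5, 1.43 for RUNX2, 1.16 for ITGA5, 0.921 for ITGB6 and -0.57 for ITGAV. In the CCN family it was 2.05 for CCN2 and 0.772 for CCN1. Of the Wnt and oestrogen lists, TCF7 had 2.59, ZNRF3 1.02, XBP1 0.77 and CTSD 0.649, while DKK1 had -2.24, APCDD1 -2.2, AXIN2 -1.58, LEF1 -1.38 and NKD1 -1.18.

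Near the 3 genes the difference was 4.7 for KCNK15, 2.61 for ABCG2, 2.16 for ADA and 1.48 for PABPC1L, and it was -2.48 for HERC5, -2.34 for HERC6, -2.22 for BCAS1 and -1.57 for PPM1K.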

How the results depend on the processing

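The log2 fold changes of CYP24A1, SPP1 and CCN5 kept their sign in both sets, and so did their differences, under every alternative that gave a value. With 10 counts required in every library, CYP24A1 and CCN5 gave none in KYSE30 and none for the difference. Leaving out each library in turn gave -3.41 to -2.95 (KYSE30), 3.56 to 3.63 (libraries labelled U138MG) and 6.49 to 6.95 (difference) for CYP24A1, -1.09 to -0.87, 5.50 to 5.83 and 6.42 to 6.75 for SPP1, and -2.29 to -1.80, 3.67 to 4.03 and 5.56 to 6.06 for CCN5. Scaling by library size alone moved the median of all genes by -0.105 in KYSE30 and -0.147 in the libraries labelled U138MG, and CYP24A1 in the latter to 3.44, further than its replicate spread.

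With 10 counts in every library, which tests fewer genes, 1273 genes instead of 2048 were called lower in the libraries labelled U138MG, and 5 listed genes instead of 10 higher in KYSE30. Values close to 0 changed sign for FDX1 in the libraries labelled U138MG (-0.0855 by library size alone, and from -0.0396 to 0.141 when single libraries were left out, below 0 without DMSO replicate 2), SEMA3B in KYSE30 (-0.0111 by library size alone), AXIN2 in KYSE30 (-0.646 to 0.0169 over single libraries left out, above 0 without DMSO replicate 3) and PPM1K in the libraries labelled U138MG (0.00469 by DESeq2, 0.0294 without a filter, -0.0398 to 0.0945 over single libraries left out, above 0 without DMSO replicate 2 or PTDSS1i replicate 1). The cause was not tested. Of 1115 alternative values for the other named genes, 24 lost a call, 7 gained one and 8 changed sign.

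Replicate numbers were not treated as pairs in the main fits. Correlations of deviations between libraries of the same number were small. In KYSE30 they were 0.0204 to 0.0754, above the range of -0.076 to 0.00613 for libraries of different numbers. In the libraries labelled U138MG they were -0.00288 to 0.0484, within the range of -0.0638 to 0.0559 for different numbers. With the replicate number as a block, CYP24A1 had -3.12, 3.59 and a difference of 6.68, SPP1 had -0.97, 5.61 and 6.55, and CCN5 had -2.04, 3.82 and 5.82.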
